A study of Mus musculus with 12 samples.

Results

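The epithelial sodium channel and the genes that regulate it were described across 3 treatments of tubuloids, which are epithelial structures grown in Matrigel from the dissociated kidney cortex of mice. The genes were found in the deposited table by their symbols: Scnn1a, Scnn1b and Scnn1g, which encode the 3 subunits of the channel, and the regulators Sgk1, Usp2 and Nedd4l. All 6 were found among the 20819 genes of the deposited table, and all 6 had values high enough to be tested. One group of tubuloids received myoglobin and 100 nM dexamethasone, one received myoglobin, and one received vehicle, each for 12 h and with 4 libraries, so that 12 libraries were compared. All 3 groups were wildtype, and the series' design text names 4 mice as the source of the cortex without saying which library came from which mouse. Myoglobin, the haem protein of muscle, is named there as the agent of tubular injury, and dexamethasone is a synthetic glucocorticoid. No group received dexamethasone without myoglobin, so that every dexamethasone effect below was measured in the presence of myoglobin. P-values measure only the spread between these libraries, since no label says that they came from separate mice.

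The channel lies in the apical membrane of principal cells in the connecting tubule and collecting duct, where it takes up sodium from the urine. Aldosterone, acting through the mineralocorticoid receptor, is the best known inducer of its activity, and glucocorticoids acting through the glucocorticoid receptor can induce many of the same genes. The ubiquitin ligase encoded by Nedd4l binds the channel and marks it for removal from the membrane. The kinase encoded by Sgk1 phosphorylates that ligase and so keeps more channels at the surface, and the deubiquitinase encoded by Usp2 removes ubiquitin from the channel.

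Values are normalised read counts, that is reads per gene scaled to the depth of the library. Before scaling, a library with myoglobin and dexamethasone held an estimated 3.25 to 5.53 M reads, one with myoglobin 5.34 to 5.92 M, and one with vehicle 5.50 to 5.87 M. Replicate 4 of myoglobin with dexamethasone stood apart: it had the fewest reads, and it listed 2179 genes at 0, while the other 11 libraries listed 1051 to 1544. The treatments were visible in genes that each agent is known to induce. Fkbp5, a chaperone partner of the glucocorticoid receptor, had a log2 fold change of 1.19 ± 0.073 (SE) for myoglobin with dexamethasone over myoglobin, and Hmox1, the haem oxygenase, one of 2.01 ± 0.062 for myoglobin over vehicle. The tubuloids carried markers of distal segments. Of the 7 principal cell markers read below, 5 fell with myoglobin against vehicle, where 9.62% of all tested genes fell. Gata3, a transcription factor of the collecting duct that was not among these 5, averaged 1090 ± 119 with myoglobin and dexamethasone, 1009 ± 33.0 with myoglobin and 1051 ± 11.4 with vehicle (SD, n = 4 each). Of the proximal tubule markers, the phosphate transporter gene Slc34a1 averaged 1.25, 1.75 and 1.75 in the same order, although the labels name tubular cells of the cortex without limiting the segment, while Lrp2, the megalin gene, averaged 332 ± 45.5, 387 ± 48.2 and 233 ± 22.2. Fewer cells of one type and less RNA per cell cannot be told apart in such bulk samples.

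Each gene was tested in 1 limma fit over all 14558 genes with sufficient values, on log2 of the value plus 1. A gene is said to have risen or fallen only where the Benjamini-Hochberg adjusted p over all tested genes was below 0.05. With myoglobin and dexamethasone against myoglobin, 3 of the 6 genes rose (Scnn1a, Sgk1 and Usp2) and 0 fell, where limma called 6.98% of all tested genes, 3.08% higher and 3.9% lower. With myoglobin against vehicle, 0 rose and 4 fell (Scnn1b, Scnn1g, Usp2 and Nedd4l), where it called 18.3% of all tested genes, 8.71% higher and 9.62% lower. With myoglobin and dexamethasone against vehicle, 3 rose (Scnn1a, Sgk1 and Usp2) and 2 fell (Scnn1b and Scnn1g), where it called 28.6%, 13.9% higher and 14.6% lower. These splits moved with the scaling. With all libraries set to equal totals the last was 1565 genes higher and 2648 lower, in place of 2029 and 2132, and the first was 384 higher and 717 lower, in place of 448 and 568. With upper-quartile scaling the split for myoglobin against vehicle was 1055 higher and 1663 lower, in place of 1268 and 1401. The median log2 fold change of all tested genes was 0.01, 0.00 and 0.00 in these 3 comparisons. The overlap of the libraries was counted as well. Between myoglobin with dexamethasone and myoglobin, 3 of the 6 genes did not overlap and all 3 were higher, where 13.2% of all tested genes did not overlap, 7.03% higher and 6.19% lower. Between myoglobin and vehicle 4 did not overlap and all 4 were lower, where 25.0% of tested genes did not, 12.9% higher and 12.1% lower. Between both agents and vehicle all 6 did not overlap, 3 higher and 3 lower, where 28.6% of tested genes did not, 15.3% higher and 13.3% lower. The comparisons share libraries, so their counts are not independent of each other.

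**Figure D1:**
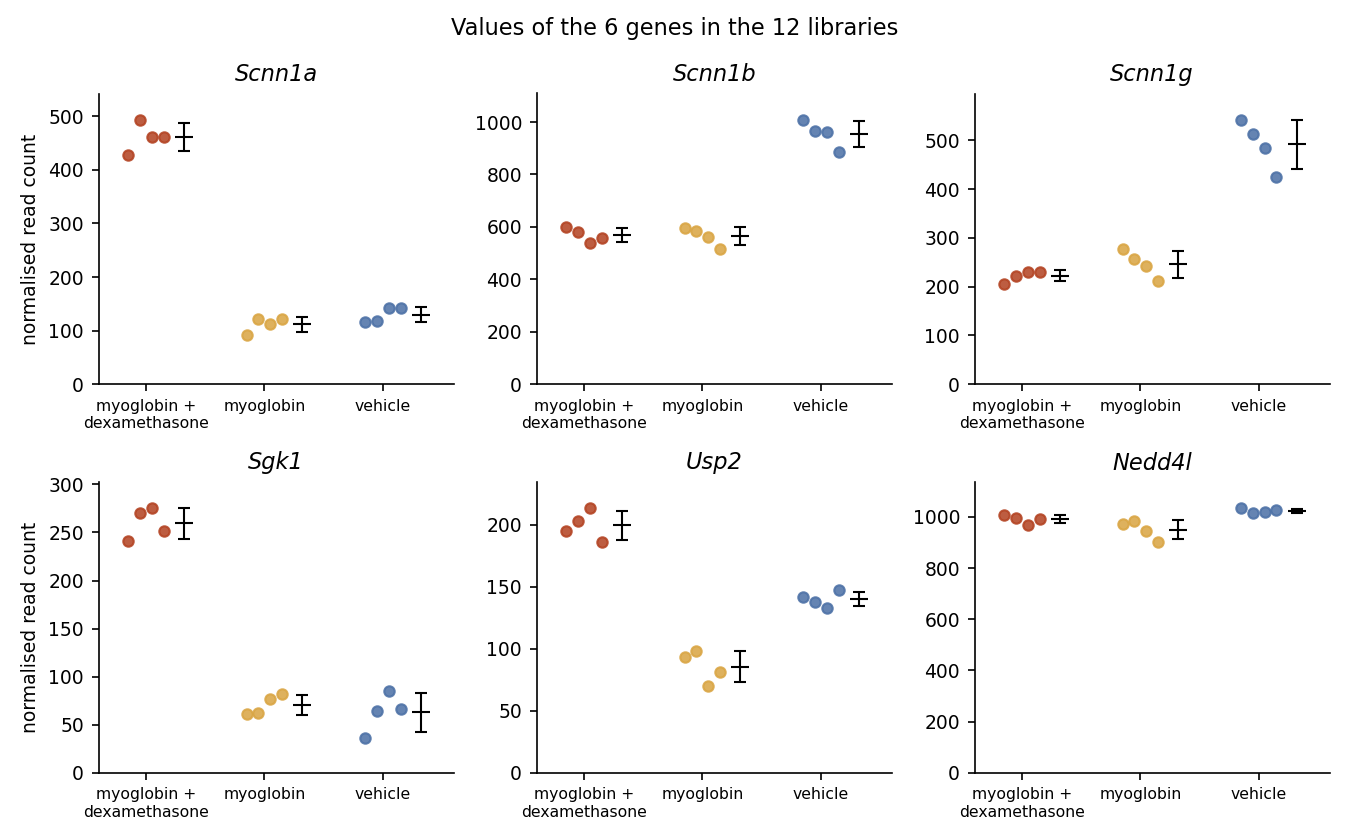
Normalised read counts of the 6 genes in the 12 libraries, grouped as myoglobin with dexamethasone, myoglobin, and vehicle. Points are libraries in replicate order, and the bar beside them is the mean ± SD (n = 4). Scnn1a, Sgk1 and Usp2 are highest with dexamethasone, with all 4 libraries above those of the other groups, while Scnn1b and Scnn1g are highest with vehicle.

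Scnn1a encodes the alpha subunit, without which the other subunits form little working channel (ENSMUSG00000030340, chr6:125320659-125344943, mm10). Its normalised read counts were 428, 493, 462 and 461 with myoglobin and dexamethasone, 91, 121, 112 and 122 with myoglobin, and 117, 118, 143 and 142 with vehicle. The 4 libraries with dexamethasone all lay above the other 8, and the libraries of myoglobin and vehicle overlapped. Scnn1a rose 4.13-fold with myoglobin and dexamethasone against myoglobin, a log2 fold change of 2.05 ± 0.097 (SE; 95% confidence interval 1.84 to 2.25; limma adjusted p 4.76e-09). Only 7 of the 14558 tested genes had a larger log2 fold change in that comparison. Against vehicle the rise was 3.54-fold (log2 fold change 1.82 ± 0.097, adjusted p 3.18e-09). For myoglobin against vehicle the log2 fold change was -0.22 ± 0.097 with an interval of -0.43 to -0.02, and the gene did not pass (adjusted p 0.135). It passed when the limma fit took the replicate number as a block (adjusted p 0.0421), though no label says that the numbers are pairs.

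Scnn1b encodes the beta subunit (ENSMUSG00000030873, chr7:121865038-121918514). Its counts were 598, 580, 539 and 556 with myoglobin and dexamethasone, 597, 586, 563 and 516 with myoglobin, and 1008, 966, 961 and 887 with vehicle. The first 2 groups overlapped nearly completely, and every vehicle library lay above both. Scnn1b fell 1.69-fold with myoglobin against vehicle, to a mean of 566 ± 35.9 with myoglobin, against 956 ± 50.3 with vehicle (log2 fold change -0.76 ± 0.053, limma adjusted p 7.15e-08). It was lower by nearly the same amount with both agents against vehicle (log2 fold change -0.75 ± 0.053, adjusted p 7.61e-08). Between myoglobin with dexamethasone and myoglobin the log2 fold change was 0.01 ± 0.053, with a confidence interval of -0.11 to 0.12 (adjusted p 0.949), and its sign turned under 2 of the 3 other scalings. A change of 4.13-fold like that of Scnn1a lies far outside that interval.

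Scnn1g encodes the gamma subunit, whose gene stands beside Scnn1b on the same chromosome and strand, with 96.6 kb between them (ENSMUSG00000000216, chr7:121734479-121768475). Its counts were 206, 223, 231 and 230 with myoglobin and dexamethasone, 277, 256, 242 and 211 with myoglobin, and 542, 514, 485 and 426 with vehicle. Again the vehicle libraries all lay above the other 8, and the groups with myoglobin overlapped each other. Scnn1g fell 1.99-fold with myoglobin against vehicle (log2 fold change -0.99 ± 0.084, limma adjusted p 5.11e-07) and 2.2-fold with myoglobin and dexamethasone against vehicle (-1.14 ± 0.084, adjusted p 1.13e-07). The log2 fold change between myoglobin with dexamethasone and myoglobin was -0.14 ± 0.084, with an interval of -0.32 to 0.04 (adjusted p 0.338).

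**Figure D2:**
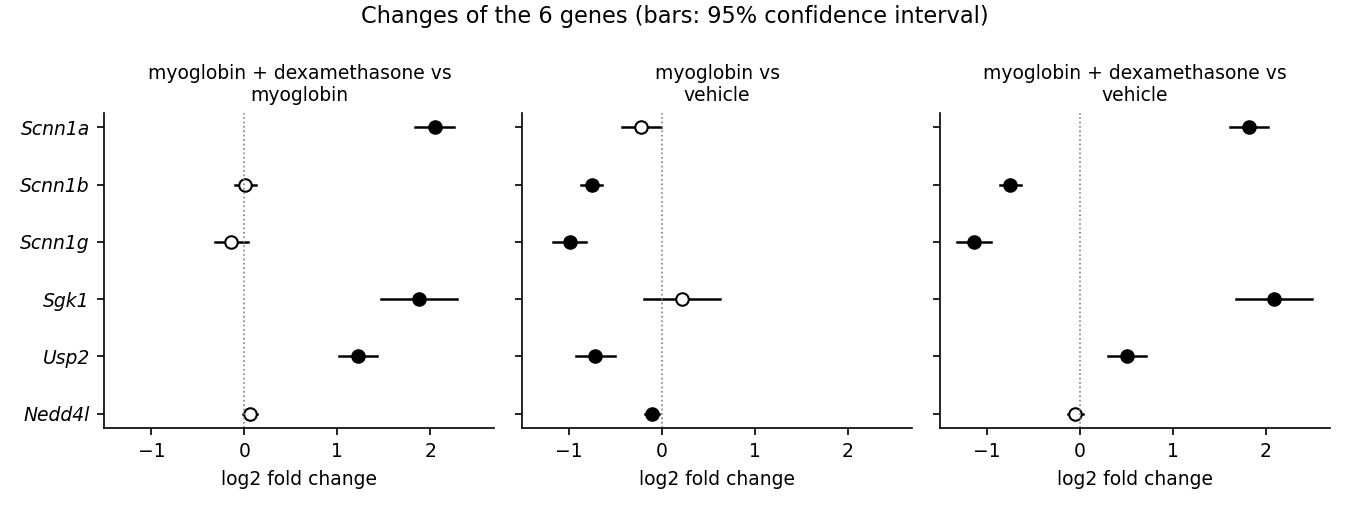
Log2 fold changes of the 6 genes in the 3 comparisons, with 95% confidence intervals from the limma fit. Filled circles passed at an adjusted p below 0.05 and open circles did not. The alpha subunit gene Scnn1a stands at 2.05 where Scnn1b and Scnn1g stand at 0.01 and -0.14, and for myoglobin against vehicle the 3 stand at -0.22, -0.76 and -0.99.

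The 2 subunit genes that moved together are shown with the 120 bases before their RefSeq transcription starts (build GRCm38.p6, plus strand), at chr7:121864918-121865037 for Scnn1b and chr7:121734359-121734478 for Scnn1g.
Scnn1b: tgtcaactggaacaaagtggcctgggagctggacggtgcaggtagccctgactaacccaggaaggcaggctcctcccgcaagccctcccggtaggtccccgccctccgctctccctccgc
Scnn1g: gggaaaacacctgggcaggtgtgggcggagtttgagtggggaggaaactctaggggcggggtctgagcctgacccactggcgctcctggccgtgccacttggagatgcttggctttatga
In the 250 bases before the start, the longest run shared by both genes, on either strand, was 9 bases long. The GC content there was 60.8% for Scnn1b and 65.2% for Scnn1g, against a median of 52.4% over all 32851 windows of the RefSeq table. The table's windows reach 250 bases before and 50 bases after the start. Neither gene's window held the hexamer AGAACA, to which the glucocorticoid receptor binds, on either strand, and so neither held the palindrome made of that hexamer, any 3 bases and TGTTCT. The hexamer occurred in 19.0% of all windows. The looser form of the palindrome, GNACA, any 3 bases and TGTNC, was not found in them either. Usp2, which rose with dexamethasone, has 1 window, and it also held neither the hexamer nor either form of the palindrome. That window belongs to a start 17.9 kb inside the gene, which has 9 distinct annotated starts. The bases before the gene's first annotated start were not searched. No window was used for Scnn1a or Nedd4l. Of the other genes within 500 kb of Scnn1b or Scnn1g, a set chosen after the values of both had been seen, limma tested 11 and called 0 for myoglobin against vehicle, with 2 at an unadjusted p below 0.05, where it called 18.3% of all tested genes. With both agents against vehicle, where it called 28.6%, 2 of the 11 fell, Palb2, a partner of the BRCA proteins (log2 fold change -0.45 ± 0.12, adjusted p 0.0109), and Plk1, a mitotic kinase (-0.33 ± 0.114, adjusted p 0.0398). The log2 fold changes of the 11 for myoglobin against vehicle ran from -0.29 to 0.17. Cog7, a Golgi complex gene that overlaps Scnn1b on the opposite strand without sharing exons, had a log2 fold change of -0.10 ± 0.048 in that comparison (adjusted p 0.175).

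Since the subunits moved differently, their levels were also compared per kb of exon. The length used is that of all annotated exons of a gene together, not of the transcripts expressed. Levels of different genes are therefore only roughly comparable, with 7 annotated transcripts for Scnn1a, 3 for Scnn1b and 1 for Scnn1g. In tubuloids given myoglobin and dexamethasone, Scnn1a stood at 112 ± 6.42 reads per kb, Scnn1b at 216 ± 9.88 and Scnn1g at 74.4 ± 3.87 (SD, n = 4). With myoglobin, Scnn1a stood at 27.0 ± 3.48, Scnn1b at 215 ± 13.6 and Scnn1g at 82.4 ± 9.26. With vehicle, Scnn1a stood at 31.5 ± 3.50, Scnn1b at 363 ± 19.1 and Scnn1g at 164 ± 16.6. Scnn1a was the lowest of the 3 subunit genes in the 8 libraries without dexamethasone, and lay between Scnn1b and Scnn1g in the 4 libraries with it.

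The ratio of Scnn1a to Scnn1b per kb does not depend on how a library is scaled. It was 0.456, 0.542, 0.546 and 0.528 with myoglobin and dexamethasone, 0.0971, 0.132, 0.127 and 0.151 with myoglobin, and 0.0740, 0.0778, 0.0948 and 0.102 with vehicle. The libraries with dexamethasone lay apart from all others, while myoglobin and vehicle overlapped. The ratio was 4.11-fold higher with myoglobin and dexamethasone than with myoglobin, and 5.94-fold higher than with vehicle (exact two-sided permutation p 0.0286 for both, 0.0429 adjusted over 6 such tests). The smallest p that 70 splits of 4 against 4 libraries can give is 0.0286. For myoglobin against vehicle it was 1.45-fold higher and did not pass (exact permutation p 0.0571, adjusted 0.0571).

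The ratio of Scnn1a to Scnn1g per kb was 1.5, 1.60, 1.45 and 1.45 with myoglobin and dexamethasone, 0.238, 0.342, 0.335 and 0.419 with myoglobin, and 0.156, 0.166, 0.213 and 0.241 with vehicle. Scnn1a thus exceeded Scnn1g per kb in the 4 libraries with dexamethasone and in none of the other 8. This ratio was 4.55-fold higher with myoglobin and dexamethasone than with myoglobin and 7.78-fold higher than with vehicle (exact permutation p 0.0286, adjusted 0.0429 for both). It was 1.71-fold higher with myoglobin than with vehicle, where the exact permutation test gave p 0.0571 (adjusted 0.0571, and 0.0343 with a pseudocount of 10).

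**Figure D3:**
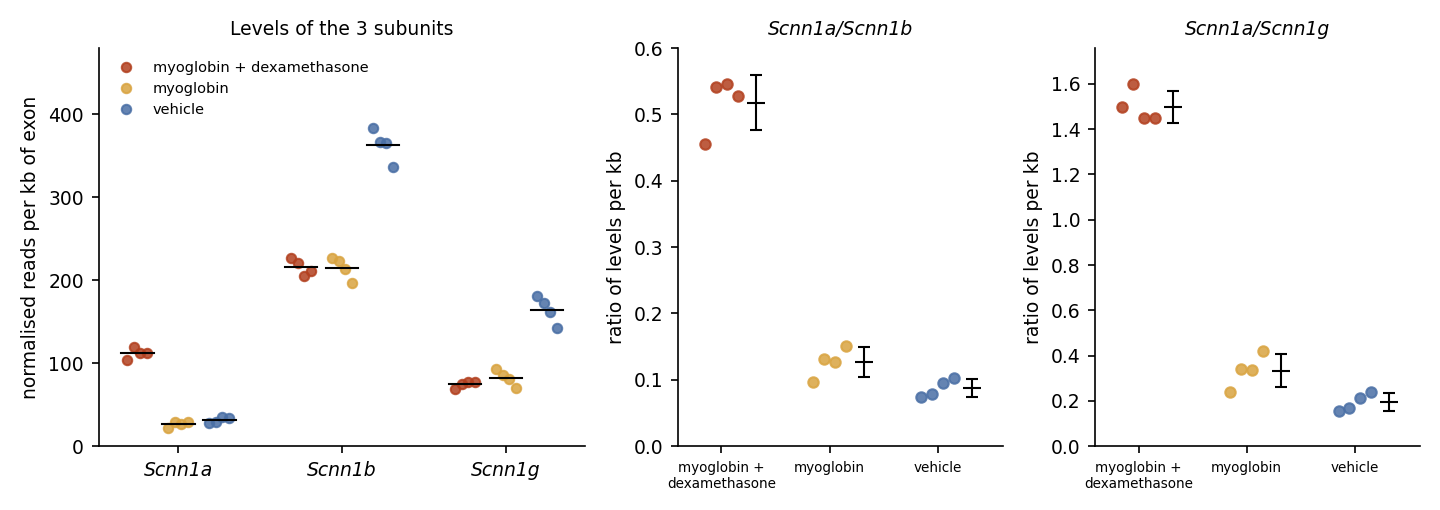
Left, levels of the 3 subunit genes in normalised reads per kb of exon, with points for libraries and lines for group means. Middle and right, the ratio of Scnn1a to Scnn1b and to Scnn1g in each library, with the mean ± SD (n = 4) beside the points. Only the libraries with myoglobin and dexamethasone have more Scnn1a than Scnn1g per kb, with ratios of 1.45 to 1.60.

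Sgk1, the kinase gene that is a textbook early target of corticosteroids (ENSMUSG00000019970, chr10:21882184-21999903), had counts of 241, 270, 275 and 252 with myoglobin and dexamethasone, 61, 62, 77 and 82 with myoglobin, and 36, 64, 85 and 66 with vehicle. The libraries with dexamethasone lay above all others, and the vehicle libraries spread around those of myoglobin on both sides. Sgk1 rose 3.67-fold with myoglobin and dexamethasone against myoglobin (log2 fold change 1.88 ± 0.191, limma adjusted p 3.13e-05) and 4.26-fold against vehicle (2.09 ± 0.191, adjusted p 1.06e-06). For myoglobin against vehicle the log2 fold change was 0.22 ± 0.191 with an interval of -0.19 to 0.62 (adjusted p 0.49). That value rests on vehicle replicate 1, the library with 36: without it the log2 fold change was -0.02.

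RefSeq gives Sgk1 6 transcription starts in the promoter table. One of their windows is shown because it holds the full glucocorticoid response palindrome (AGAACA, any 3 bases, TGTTCT), which stands in capitals. It is the 250 bases at chr10:21993640-21993889 (GRCm38.p6, plus strand).
Sgk1: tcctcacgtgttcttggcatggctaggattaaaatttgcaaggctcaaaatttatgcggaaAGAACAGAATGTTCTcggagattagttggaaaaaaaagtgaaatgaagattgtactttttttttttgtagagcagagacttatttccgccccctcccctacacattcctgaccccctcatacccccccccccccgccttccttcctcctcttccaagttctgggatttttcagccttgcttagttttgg
The palindrome covers chr10:21993701-21993715, and its first base lies 189 bases before the start of that window's transcript and 965 bases before the next start downstream. Searched on both strands, the palindrome occurred in 3 of the 32851 windows of the table (0.00913%). The looser form, GNACA, any 3 bases and TGTNC, which includes the full one, occurred in 156 (0.475%). The window also holds another copy of the hexamer outside the palindrome and the E-box CACGTG, which 7.15% of all windows hold. The other 2 genes with the full palindrome gave no comparison: Acnat2 had means of 0.75, 0 and 0 with myoglobin and dexamethasone, myoglobin, and vehicle, and Gm35041 was not analysed here. The counts are per gene, so the share of reads from each Sgk1 start was not measured.

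Usp2 encodes a deubiquitinase with a short form that aldosterone induces in the mouse kidney, and it is also known as a clock-controlled gene (ENSMUSG00000032010, chr9:44067021-44095627). Its counts were 195, 203, 213 and 186 with myoglobin and dexamethasone, 93, 98, 70 and 81 with myoglobin, and 142, 138, 133 and 147 with vehicle. Usp2 was the only one of the 6 genes whose 3 groups did not overlap at all, with myoglobin lowest and dexamethasone highest. It fell 1.64-fold with myoglobin against vehicle (log2 fold change -0.72 ± 0.097, limma adjusted p 7.26e-05). When dexamethasone was added it rose 2.33-fold against myoglobin (1.22 ± 0.097, adjusted p 2.29e-06) and 1.42-fold against vehicle (0.51 ± 0.097, adjusted p 0.00115). Gm49380 and Gm39325, which overlap exons of Usp2 on the opposite strand, had no value above 4. The counts do not separate the forms of Usp2.

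Nedd4l encodes the ubiquitin ligase that removes the channel from the membrane (ENSMUSG00000024589, chr18:64887705-65217828). Its counts were 1009, 997, 969 and 992 with myoglobin and dexamethasone, 974, 982, 943 and 900 with myoglobin, and 1033, 1014, 1021 and 1026 with vehicle. All vehicle libraries lay above all others, but by a small margin. Nedd4l fell 1.08-fold with myoglobin against vehicle (log2 fold change -0.11 ± 0.036, limma adjusted p 0.0488). This call did not hold in 14 of the 16 fits that left out libraries, where the adjusted p ran from 0.0144 to 0.217. With both agents the log2 fold change was 0.06 ± 0.036 against myoglobin (interval -0.01 to 0.14, adjusted p 0.32) and -0.05 ± 0.036 against vehicle (adjusted p 0.366, and 0.0179 at -0.13 with quantile normalization). Per kb of exon Nedd4l stood at 56.2 ± 0.949 with myoglobin and dexamethasone, 53.8 ± 2.11 with myoglobin and 58.0 ± 0.454 with vehicle. Sgk1 stood at 52.9 ± 3.22, 14.4 ± 2.16 and 12.8 ± 4.12 per kb and Usp2 at 41.4 ± 2.39, 17.7 ± 2.61 and 29.1 ± 1.23 in the same 3 groups. The levels of these 3 genes compare only roughly. Nedd4l has 17659 exonic bases over 34 annotated transcripts, against 4903 bases for Sgk1 and 4818 for Usp2.

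Around the 6 genes, 10 lists with 74 genes of the channel's wider pathway were counted, of which 71 were tested. For myoglobin with dexamethasone against myoglobin, 10 rose and 2 fell (16.9%, median log2 fold change 0.08). With myoglobin against vehicle, 12 rose and 12 fell (33.8%, median 0.03), and with myoglobin and dexamethasone against vehicle, 24 rose and 12 fell (50.7%, median 0.14). Of all tested genes, limma called 6.98%, 18.3% and 28.6% in these comparisons, and the counts of each list below stand against those shares. Without replicate 4 of myoglobin with dexamethasone, 15, 35 and 39 of these genes passed in the 3 comparisons, and without all libraries numbered 2 the counts were 4, 15 and 23. Replicate 4 of myoglobin with dexamethasone is not part of myoglobin against vehicle. It enters that comparison, here and below, only through the spread that the fit shares over the 3 groups and the filter on low values. No test was made of whether these shares differ from those of all genes.

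Of 7 genes listed as corticosteroid-induced and tied to sodium transport, 5 rose and 0 fell with myoglobin and dexamethasone against myoglobin. Of all tested genes 3.08% rose there. The list was made of genes that corticosteroids are known to induce, Fkbp5 among them, so these rises mainly show the treatment. With myoglobin against vehicle 1 rose and 2 fell, and with both agents against vehicle 4 rose and 0 fell. Beside Fkbp5, the clock gene Per1, a regulator of Scnn1a in mouse kidney, rose with dexamethasone by a log2 fold change of 0.71 ± 0.065, to 478 ± 26.2 with myoglobin and dexamethasone, against 291 ± 12.3 with myoglobin (limma adjusted p 1.17e-05). Tsc22d3, which encodes the glucocorticoid-induced leucine zipper protein, rose both with dexamethasone (0.45 ± 0.072) and with myoglobin against vehicle (0.36 ± 0.072). Cnksr3, a scaffold of the sodium channel's regulatory complex, fell with myoglobin (-0.22 ± 0.044, adjusted p 0.00193), as Usp2 did.

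Of 5 genes of corticosteroid receptors and converting enzymes, 1 rose and 3 fell with myoglobin against vehicle, where 8.71% of all tested genes rose and 9.62% fell. Hsd11b2, which inactivates corticosterone and so keeps the mineralocorticoid receptor free for aldosterone, fell to 6.25 ± 2.22 with myoglobin, against 182 ± 37.4 with vehicle, and stood at 7.25 ± 2.75 with both agents (log2 fold change for myoglobin -4.68 ± 0.28, limma adjusted p 1.17e-08). H6pd, which supplies the cofactor of the activating enzyme, rose with myoglobin (0.42 ± 0.058, adjusted p 8.16e-05) and with both agents against vehicle (0.65 ± 0.058). Hsd11b1, the gene of the activating enzyme itself, is named here after its values were seen. It fell with myoglobin (-1.05 ± 0.338, limma adjusted p 0.0419) and with both agents against vehicle (-0.94 ± 0.338, adjusted p 0.0488). Its counts were low, at 4 to 9 with myoglobin and 10 to 25 with vehicle. With myoglobin and dexamethasone against myoglobin 1 rose and 1 fell, and both calls were lost in some fits: Nr3c1, the glucocorticoid receptor gene, at -0.25 ± 0.054 (adjusted p 0.0108; 0.0548 when every library numbered 1 was left out and 0.0655 for number 2), and H6pd at 0.23 ± 0.058 (adjusted p 0.0278, and 0.0618 to 0.109 in 7 fits without libraries). With both agents against vehicle 1 rose and 4 fell.

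Of 8 proteases reported to cleave and activate the channel, 2 rose and 0 fell with myoglobin and dexamethasone against myoglobin, 1 rose and 0 fell with myoglobin against vehicle, and 4 rose and 1 fell with both agents against vehicle, against shares of all tested genes called of 6.98%, 18.3% and 28.6%. Furin, which cleaves the alpha and gamma subunits, stood at a log2 fold change of 0.28 ± 0.057 with dexamethasone (limma adjusted p 0.00767; leaving out every library numbered 2 gave 0.0536 and number 3 gave 0.0609). Tmprss2, a membrane protease, stood at 0.21 ± 0.046 (adjusted p 0.0118; 0.0624 when number 1 was left out and 0.0811 when number 2 was). Tmprss4 rose with both agents against vehicle (0.34 ± 0.055, adjusted p 0.000281), as did the lysosomal protease gene Ctsb (0.33 ± 0.079, adjusted p 0.00528). The call of Tmprss4 for myoglobin against vehicle (0.19 ± 0.055, adjusted p 0.0254) was lost in 7 fits without libraries (0.0552 to 0.234). In that comparison 3 proteases rose and 2 fell when replicate 4 of myoglobin with dexamethasone, which is not part of it, was left out of the shared fit. Of 4 protease inhibitors, 0 passed with dexamethasone against myoglobin (1 at an unadjusted p below 0.05).

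Of 10 genes of kinases related to or upstream of SGK1 and of scaffold subunits of the mTOR complex that activates it, 1 rose and 1 fell with myoglobin and dexamethasone against myoglobin, 3 rose and 1 fell with myoglobin against vehicle, and 2 rose and 1 fell with both agents against vehicle. Without replicate 4 of myoglobin with dexamethasone, 4 rose and 1 fell in the last comparison. The shares of all tested genes called were 6.98%, 18.3% and 28.6%. Wnk4, a kinase that regulates salt transport in the distal nephron, fell with myoglobin (log2 fold change -0.42 ± 0.036, limma adjusted p 7.17e-07). With dexamethasone it stood at 0.21 ± 0.036 against myoglobin (adjusted p 0.00313; 0.0570 when every library numbered 2 was left out and 0.0633 for number 3), and it was still lower with both agents than with vehicle (-0.21 ± 0.036, adjusted p 0.000439). Sgk3, a relative of Sgk1, rose with myoglobin (0.43 ± 0.074, adjusted p 0.000671). Its value for dexamethasone was -0.29 ± 0.074 (adjusted p 0.0288, and 0.0513 to 0.19 in 7 fits without libraries). Sgk1 and Sgk3 therefore had log2 fold changes of opposite sign in that comparison.

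Of 9 other ubiquitin ligases of the Nedd4 family, adaptors and deubiquitinases, 1 rose with dexamethasone against myoglobin, 2 with myoglobin against vehicle and 4 with both agents against vehicle, and 0 fell in any of the 3, where 3.08%, 8.71% and 13.9% of all tested genes rose. Wwp1, a ligase of the same family as Nedd4l, rose with myoglobin against vehicle (log2 fold change 0.25 ± 0.039, limma adjusted p 0.000336) and with both agents against vehicle (0.43 ± 0.039, adjusted p 1.2e-06), where Nedd4l itself had values of -0.11 and -0.05. It was also the one called with dexamethasone against myoglobin (0.18 ± 0.039, adjusted p 0.0116; 0.11 when every library numbered 2 was left out and 0.0801 for number 3). Usp10, another deubiquitinase, rose with both agents against vehicle (0.26 ± 0.056, adjusted p 0.00337). Of the 4 chromatin regulators reported to repress Scnn1a, limma called 0 in each comparison, with 0 at an unadjusted p below 0.05. Their log2 fold changes for dexamethasone against myoglobin had a median of -0.04, where Scnn1a had 2.05. Dot1l, the histone methyltransferase of that group, stood at -0.07 ± 0.038 (adjusted p 0.304). Of 6 proteins of the family that binds phosphorylated NEDD4L, 0 passed with dexamethasone against myoglobin or with myoglobin against vehicle, with 0 and 1 at an unadjusted p below 0.05, and 2 rose with both agents against vehicle. Without replicate 4 of myoglobin with dexamethasone, 2 rose with myoglobin and 3 with both agents against vehicle. One of them, Ywhag, stood at 0.16 for myoglobin against vehicle with an adjusted p of 0.118, against 0.00322 without that library and 0.00804 with only the groups compared.

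Of 8 hormone and paracrine inputs to the channel, 0 passed with dexamethasone against myoglobin, with 0 at an unadjusted p below 0.05, and 2 rose and 2 fell both for myoglobin and for both agents against vehicle. P2rx4, an ATP-gated channel, rose with myoglobin (log2 fold change 0.34 ± 0.059, limma adjusted p 0.000643). Avpr2, the vasopressin receptor of principal cells, fell with both agents against vehicle (-1.23 ± 0.183, adjusted p 0.000138) and stood at -0.85 ± 0.183 for myoglobin (adjusted p 0.00376; 0.0547 when every library numbered 2 was left out and 0.0667 for number 3). Of 10 other ion transport genes, 0 passed with dexamethasone against myoglobin (5 at an unadjusted p below 0.05, and 2 passed without replicate 4 of that group), and 1 rose and 4 fell with myoglobin against vehicle (3 rose and 4 fell without that replicate). Kcnj1, the potassium channel through which principal cells secrete potassium, fell to 243 ± 27.8 with myoglobin, against 512 ± 40.7 with vehicle (-1.08 ± 0.114, adjusted p 6.26e-06). Cftr, a chloride channel, rose to 144 ± 15 with myoglobin, against 52.0 ± 4.69 with vehicle (1.45 ± 0.111, adjusted p 1.73e-07). Against vehicle Kcnj1 thus fell, as Scnn1b and Scnn1g did, while Cftr rose. In which cells these changes took place was not measured.

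**Figure D4:**
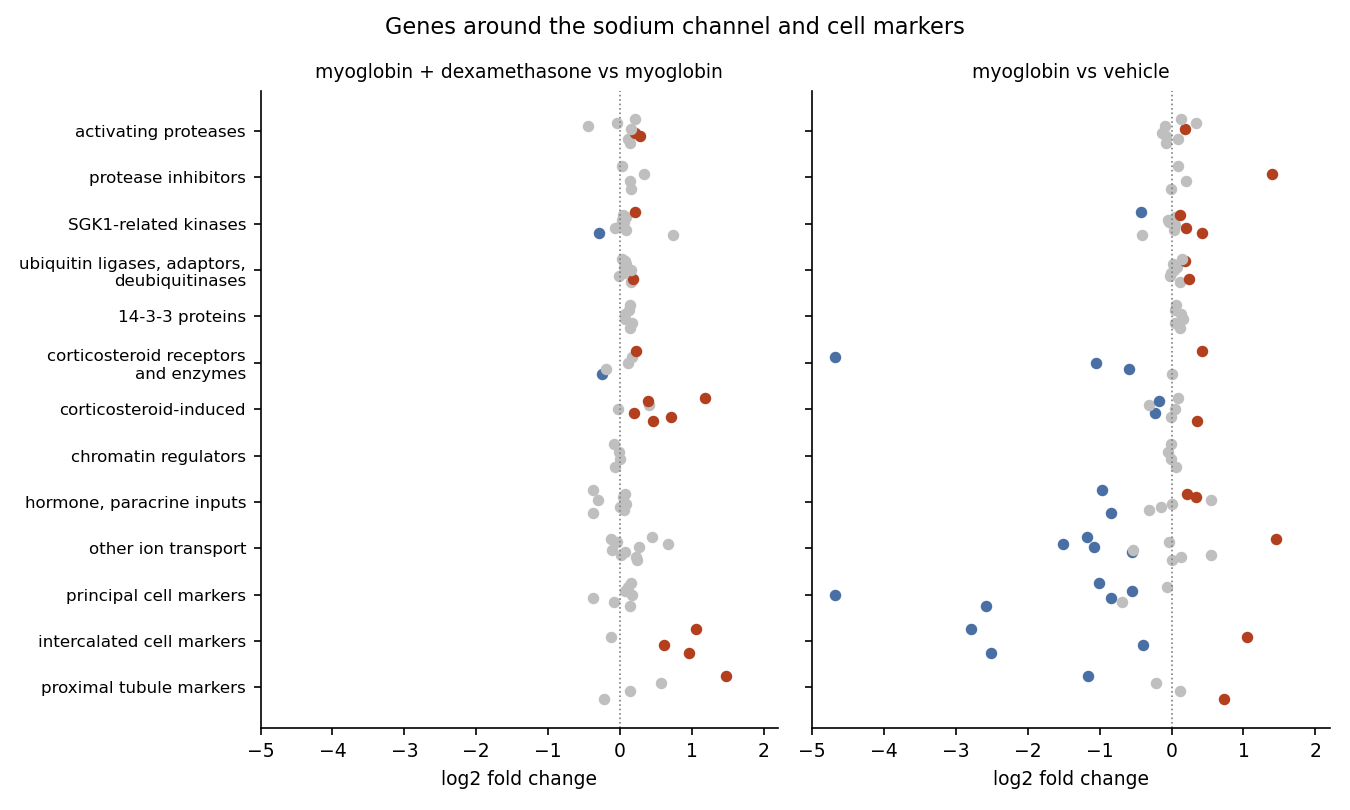
Log2 fold changes of the genes of the 10 pathway lists and of 3 lists of cell markers for myoglobin with dexamethasone over myoglobin (left) and myoglobin over vehicle (right). Each point is a gene, red where it rose, blue where it fell and grey where it did not pass. The principal cell markers show 0 points in colour on the left and 5 of 7 in blue on the right.

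Markers of principal cells, the cells that carry the channel, were read beside the subunit genes. Of 7 markers 0 rose and 5 fell with myoglobin against vehicle (Aqp2, Avpr2, Hsd11b2, Fxyd4 and Elf5), where 9.62% of all tested genes fell, and Gata3 did not pass (log2 fold change -0.06 ± 0.058). Their summed values ran from 1388 to 1568 with myoglobin and dexamethasone, 1314 to 1449 with myoglobin and 1707 to 1944 with vehicle, and 0 of them were at 0 in every library of a group. Gata3 made up most of these sums, with means of 1090, 1009 and 1051 in the same order, so the sums mainly follow that gene. Aqp2, the vasopressin-regulated water channel, averaged 4.75 ± 2.36, 4.25 ± 2.22 and 30 ± 10.7 in the same order. The part of these markers in the falls of Scnn1b and Scnn1g was not tested. In the comparison of myoglobin with dexamethasone against myoglobin, where Scnn1a rose, limma called 0 of the 7 markers, with 0 at an unadjusted p below 0.05.

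Other segments moved as well. Of 4 tested intercalated cell markers 3 rose and 0 fell with dexamethasone against myoglobin, where 2 rose without replicate 4 of that group and 3.08% of all tested genes rose, and 1 rose and 3 fell with myoglobin against vehicle. The summed values of all 6 intercalated cell markers found, tested or not, ran from 512 to 589 with myoglobin and dexamethasone. They ran from 372 to 489 with myoglobin and 410 to 548 with vehicle. Atp6v0d2 (means 352, 230 and 304 in the same order) and Slc26a4 (162, 178.5 and 88.5) made up most of these sums. Of 5 tested markers of the distal convoluted and connecting tubule, 1 rose and 2 fell with myoglobin against vehicle. Of all tested genes 8.71% rose and 9.62% fell there. Slc12a3, the sodium chloride cotransporter of the distal convoluted tubule, fell to 458 ± 64.3, against 1044 ± 186 with vehicle (-1.18 ± 0.167, limma adjusted p 0.000112). Trpv5 averaged 7.75 ± 2.5 with myoglobin and 36.25 ± 8.66 with vehicle. Calb1, a calcium-binding protein of the same segments, was the 1 that rose (0.31 ± 0.079, adjusted p 0.0124). Of 7 general epithelial markers limma called 0 for myoglobin against vehicle, with 1 at an unadjusted p below 0.05, but 2 fell without replicate 4 of myoglobin with dexamethasone. Their summed values ran from 8678 to 11795 with both agents, 8228 to 8683 with myoglobin and 8683 to 9066 with vehicle. The 11795 was that of replicate 4 with both agents, the shallowest library, which had its group's highest value for each of the 7 markers. The part of these markers in the changes of the channel genes was not tested.

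For each of the 6 genes, the 3 other genes with the most similar course over the 12 libraries were taken, by the root mean square difference of centred log2 values. Scnn1a and Sgk1 were among each other's nearest genes (0.293 on the log2 scale), and the nearest to Scnn1a was Sult1d1, a sulfotransferase gene (0.184). Sult1d1 averaged 322 ± 7.04 with myoglobin and dexamethasone, 65.8 ± 1.5 with myoglobin and 77.0 ± 8.83 with vehicle. The nearest to Scnn1b were Camk2n1, an inhibitor of a calmodulin-dependent kinase (0.0649), Igfbp5, which binds insulin-like growth factors (0.0789), and Dkk3, a secreted protein of the Dickkopf family (0.0991). Those nearest to Scnn1g were Col27a1, a collagen chain (0.0896), Rasl11b (0.1) and Cplx2 (0.127). Scnn1b and Scnn1g were not among each other's nearest 3.

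Usp2 lay nearest to Kcnj15, a potassium channel gene (0.161), Ldhd, a lactate dehydrogenase for the D form (0.164), and Npr1, the receptor of atrial natriuretic peptide (0.176). Ldhd averaged 540 ± 26.6 with myoglobin and dexamethasone, 256 ± 12.7 with myoglobin and 357 ± 11.2 with vehicle, the same order of groups as Usp2. Nedd4l, which varied least of the 6 genes, lay nearest to Man2c1, an alpha-mannosidase (0.0234), Rgp1 (0.0291) and Ndst1, an enzyme of heparan sulfate synthesis (0.032). These genes share libraries and scaling with the 6, and their likeness is a description of the 12 libraries.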

How the data were processed

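RNA of 12 tubuloid libraries, 4 per treatment, was sequenced from stranded messenger RNA preparations, per the labels' protocols. Tools listed in the submitters' processing notes, with no role given, are DESeq2 1.36.0, featureCounts 2.0.3, STAR 2.7.10a, Trimmomatic 0.39 and Picard 2.27.4, and the build listed is mm10. The deposited values are whole numbers for 20819 genes. They behave as rounded quotients of reads and a size factor per library (0.569 to 1.11), so the deposited values were treated as a normalised score and no count test was made. The reads per library were estimated from the steps between values.

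The planned test was limma-trend (limma 3.58.1, R 4.3.3) on log2(value + 1) with 3 group means and 1 shared spread, over the 14558 genes with at least 10 in at least 4 libraries. Two-sided p-values were adjusted within each comparison by the Benjamini-Hochberg method. The fit was tested on simulated data. Fold changes and intervals are on the log2(value + 1) scale, which understates changes of low genes. Ratios of subunit genes were compared by exact permutation. Tables and plots used Python 3.11.15, pandas 2.3.3, numpy 2.4.6, scipy 1.17.1 and matplotlib 3.10.9. Coordinates and gene symbols are those of the table; 98.9% of genes have the same coordinates in GENCODE M21, which gave exon lengths, and promoter windows came from RefSeq (GRCm38.p6, 4 of the 6 genes).

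The 6 genes, the 10 pathway lists and the 11 marker lists (143 entries with 74 pathway and 69 marker genes) were chosen with earlier results of these data known, and no list was tested as a set. For each list and comparison the rule for names took the 2 genes that passed with the smallest p, or the 1 with the smallest p. It also took every marker, 4 genes known to respond to the treatments and the 3 most similar genes of each member. Not every gene so named is printed. Alternatives were other pseudocounts, scalings and filters, only 2 groups, robust moderation, the replicate number as a block, and leaving out libraries. The result of 1 pathway gene is not reported here.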

Additional observations from a re-analysis of the deposited data

Results flagged for a closer look

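None of the 18 groups of 4 values of the 6 channel genes held a library far from its fellows by Dixon's test. Over all 114 groups examined (the 6 genes, their 2 ratios, the other pathway genes named by the rule, and Hmox1), 11 did, where chance gives about 1 in 20, and 8 of the 11 were replicate 4 of myoglobin with dexamethasone, the library with the fewest reads. It had the highest value of its group for Furin (1752), Spint1 (1048), Spint2 (1330), Ywhae (1474), Ywhag (1412), Ywhab (1354) and H6pd (2211), and the lowest for Avpr2 (26). The other 3 were vehicle libraries: Furin was highest in replicate 1 (1341), Avpr2 lowest in replicate 4 (58), and Kcnj10 highest in replicate 2 (55). For most of the channel genes, replicate 4 of myoglobin with dexamethasone lay between other libraries of its group. It had 461 for Scnn1a, 556 for Scnn1b, 230 for Scnn1g, 252 for Sgk1 and 992 for Nedd4l. For Usp2 it had 186, the lowest of its group, below the 195 to 213 of the others.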

How the results depend on the processing

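Of the 18 results of the 6 genes, 13 kept their direction and their side of the threshold in all 25 alternatives, and 425 of the 450 values did so. Nedd4l with myoglobin lost its call with no filter on low values (-0.11, adjusted p 0.0734), with robust moderation (-0.11, adjusted p 0.0522), and in 14 fits without libraries (range of all such fits -0.129 to -0.0818). With both agents against vehicle quantile normalization called it (-0.13). Scnn1b with dexamethasone turned sign with equal totals (-0.0206), with quantile normalization (-0.0091) and in 4 fits without libraries (range -0.0351 to 0.0349). Sgk1 with myoglobin turned sign without vehicle replicate 1 (range -0.0236 to 0.382), and Per1 with myoglobin, which did not pass, in 5 such fits (range -0.0586 to 0.0374).

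Genes called with dexamethasone against myoglobin numbered 645 with only those groups and 314 to 1279 without libraries, in place of 1016. The count fell by over 1.5 times without all libraries numbered 1 (624), 2 (315) or 3 (314) and without myoglobin replicate 2 (616) or 4 (549). Without libraries, 1393 to 3789 were called for myoglobin and 2404 to 4226 for both agents against vehicle, the lowest without numbers 3 and 2. Pathway genes called numbered 4 to 15, 15 to 35 and 23 to 39 in the 3 comparisons. The lowest pathway counts came without all libraries numbered 2. For dexamethasone against myoglobin number 3 gave 6. The cause was not tested, though these fits have fewer libraries. The ratio of Scnn1a to Scnn1g for myoglobin against vehicle passed with a pseudocount of 10 (0.76). Without replicates the log2 ratio differences ran from 1.98 to 2.12 and 2.50 to 2.64 for Scnn1a to Scnn1b, and 2.03 to 2.32 and 2.86 to 3.09 for Scnn1a to Scnn1g, for dexamethasone against myoglobin and against vehicle. With 3 libraries a group the exact test cannot go below 0.1.

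The labels number libraries 1 to 4 in each group. Deviations of same-numbered libraries correlated at -0.02 to 0.46, with 9 of 12 pairs over 0.1, so the numbers were not taken as pairs. As a hint from the data, 20 of 24 library positions over the 3 comparisons correlated best with their own number. With the replicate number as a block 1788 genes were called with dexamethasone against myoglobin, and Scnn1a passed for myoglobin against vehicle (-0.22, adjusted p 0.0421). A sign-flip test of the ratios within pairs (2.04, 2.57, 2.19 and 2.96) cannot go below 0.125. Depth limits low genes most: the estimated reads were 3.25 M in the shallowest library.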
